A study of Rattus norvegicus with 107 samples.

Results

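The genes of the lysosome were read in colon and brain of Sprague Dawley rats from the end of gestation to weaning age. The set was taken by symbol from the annotation of the arrays: 38 listed genes for soluble enzymes, their activators and membrane proteins of the lysosome, together with every gene whose symbol starts with Atp6v, the subunits of the vacuolar proton pump. Of the 38 listed genes, 33 have a named probe, and Cd68, Ctsz, Ctsa, Naglu and Acp5 do not. With 20 Atp6v genes this gives 53 genes, read from 54 probes, of 13337 gene symbols and 22523 probes on the array.

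Each sample was total RNA of colon or brain of a rat pup, hybridized to an Illumina RatRef-12 BeadChip. The groups differ in tissue and age, and litters were adjusted to 10 pups per dam at birth. The ages were embryonic day 21 (E21), at which all pups were taken from 1 dam by Caesarean section, and postnatal days (PND) 1, 2, 3, 5, 7, 10, 15 and 22. Colon had 5 samples at E21 and 6 at each later age (53 samples), and brain had 6 samples at each of the 9 ages (54 samples). The samples are labelled as separate replicates without naming the litter, so that the p-values measure the spread between these samples, part of which may be technical.

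Lysosomes break down proteins, glycans and lipids that reach them by endocytosis, phagocytosis and autophagy. Their hydrolases need an acidic lumen, which the proton pump keeps up with its cytosolic V1 sector, where ATP is hydrolysed, and its membrane V0 sector, through which protons pass. In the suckling rodent, epithelial cells of the small intestine take up milk macromolecules and digest them in large lysosomal vacuoles, a capacity that is lost at weaning. Small intestine is not among the samples read here. In brain, neurons and glia depend on the same enzymes, and in humans the loss of many of them causes neurodegenerative storage diseases. Neurons also use the proton pump to fill synaptic vesicles with transmitter.

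All values are bead signals, quantile normalized over both tissues, and log2 changes are differences between group means of their log2. A call is an adjusted p under 0.01 in limma, with the Benjamini-Hochberg method applied to the full set of 22523 probes. A probe counts as detected in a sample at a detection p under 0.05 against the negative control beads of that array. The arrays had 10276 to 12277 detected probes in colon and 9617 to 12016 in brain. Of the 53 lysosome genes, 40 were detected in every colon sample and 38 in every brain sample, and 47 in every sample of at least 1 age of either tissue. Idua and Atp6v1e2 were detected in no colon sample, and Idua in no brain sample. Epithelial markers were bright in colon and neuronal and glial markers in brain, as labelled, with exceptions in 2 libraries. Colon E21 replicate 4 had a summed signal of 7 neuron markers of 5860, against 1257 to 1422 in the other 4 colon samples of E21, and of 6 astrocyte markers of 3354, against 764 to 1042. Brain PND 15 replicate 6 had a summed signal of 9 colon epithelium markers of 1074, against 563 to 634 in the other 5 brain samples of PND 15, and of 4 smooth muscle markers of 612, against 304 to 335. Calls and counts that changed without either library are given beside the result. Colon PND 22 replicates 1 and 2 also differed from the other colon samples of PND 22. Their smooth muscle sums were 28521 and 31748, against 13999.6 to 20319 in the others. The astrocyte sums were 1544 and 1668, against 881 to 1108. Before normalization their median signals were 71.7 and 80.1, against 43.6 to 49.9. Each was left out in turn, but no fit left out both.

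Between PND 3 and PND 22, many lysosome genes fell in colon and most rose in brain. In colon, 19 of the 53 genes were lower at PND 22 than at PND 3, while 12.7% of all probes were called lower. A further 6 genes were higher in colon (Ctsd, Psap, Scarb2, Manba, Npc1 and Atp6v0e2), where 11.7% of all probes were. In brain, 33 of the 53 were higher at PND 22, against 11.7% of all probes, and 0 were lower, against 12.2%. The shares of all probes, here and below, include probes that were not detected. With detected probes alone, 18 lysosome genes were lower and 6 higher in colon, against 23.5% and 20.4% of those probes. In brain 32 were then higher and 0 lower, against 21.4% and 22.7%. In limma 2 genes were lower in brain at an unadjusted p under 0.05, and 1, Gusb, was called lower without brain PND 22 replicate 3 (adjusted p = 0.00713). The median log2 change of the 53 genes was -0.10 in colon and 0.39 in brain, while over all probes it was -0.00 and -0.02. Samples of PND 22 and PND 3 did not overlap for 16 of the 19 falls in colon, and 8.68% of all probes were called lower there without overlap. They did not overlap for 27 of the 33 rises in brain, against 8.73% of all probes called higher without overlap. Among all called probes, 68.4% of the falls in colon and 74.8% of the rises in brain had no overlap, while among the lysosome genes these shares were 84.2% and 81.8%. A transcript level in whole tissue does not tell fewer cells of a type from less RNA per cell.

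The change in colon minus the change in brain was tested for each gene in a joint fit of both tissues. It was below 0 for 46 of the 53 genes. It was called below 0 for 30 of them, against 10.9% of all probes, and called above 0 for 1 gene, Scarb2, against 10.3%. Its median over the lysosome genes was -0.59, while over all probes it was 0.02. Of the 53 genes, 9 were called lower in colon and higher in brain, which held for 1.7% of all probes: the peptidases Tpp1 and Ctsh, the hexosaminidase chain Hexa, the lipid hydrolases Ppt1 and Smpd1, the cholesterol carrier Npc2, the membrane protein Laptm4a, and the pump subunits Atp6v1b2 and Atp6v1g1. The reverse pattern, higher in colon and lower in brain, was seen in 0 genes, against 1.02% of all probes. A further 10 genes were called lower in colon alone (Glb1, Gusb, Man2b1, Gaa, Acp2, Lamp2, Galns, Ctsc, Atp6v1f and Atp6v0d2), and 18 were called higher in brain alone. The shares of all probes called in 1 tissue alone were not counted.

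These counts rest on the scaling of the arrays to a different degree in the 2 tissues. When each array was scaled to its 75th percentile instead of quantile normalized, the median change of all probes in brain was -0.26 and in colon 0.01, and 31 genes were still called higher in brain and 1 lower, but in colon 9 were called lower and 8 higher. Of all probes, 10.1% were then called higher and 28.4% lower in brain, and 9.41% lower and 11.2% higher in colon. The share of lower genes among the lysosome genes called in colon was then 52.9%, against 76% with quantile normalization, and among all probes called in colon it was 45.6% against 52.1%. In brain 73.7% of all called probes were lower under that scaling, against 51.1%. Of the 9 genes called in opposite directions, 3 (Atp6v1b2, Ppt1 and Ctsh) kept both calls under that scaling, Acp2 was added, and Laptm4a came out at 0.030 in colon. The colon changes of Tpp1 (-0.26, adjusted p = 0.0912), Hexa (-0.41, adjusted p = 0.0218), Npc2 (-0.07, adjusted p = 0.839), Smpd1 (-0.07, adjusted p = 0.782) and Atp6v1g1 (-0.16, adjusted p = 0.234) were not called there. The median of the difference between tissues was -0.44 over the lysosome genes and 0.27 over all probes. The count of genes called with a colon change below the brain change varied from 26 to 31 over all alternatives tried.

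**Figure D1:**
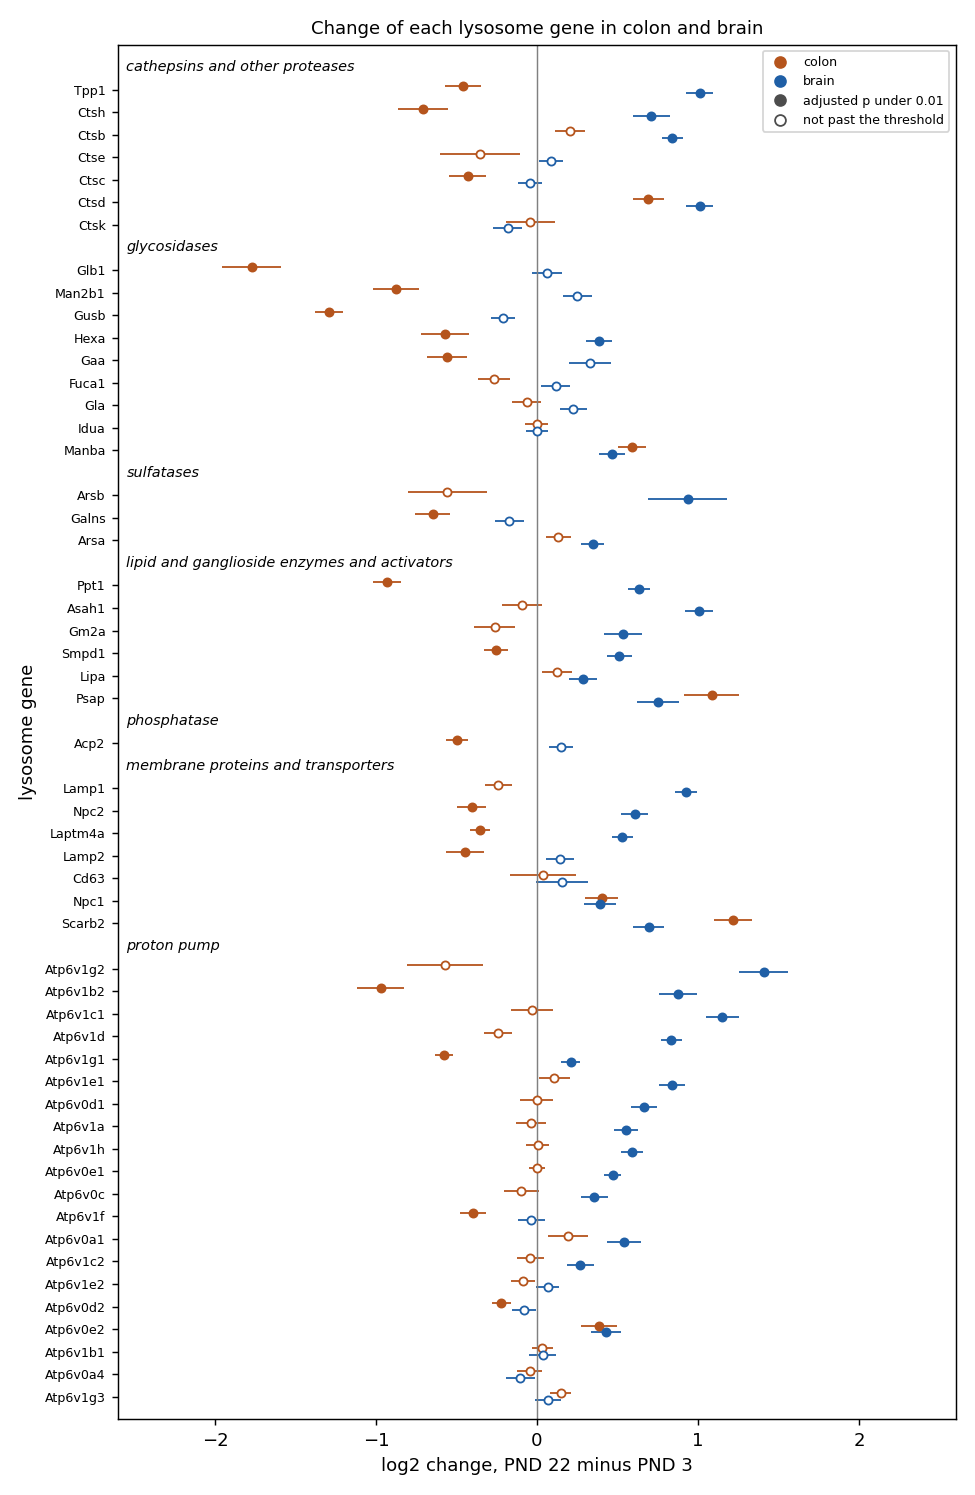
Log2 change at PND 22 minus PND 3 (horizontal axis, 6 samples per age) for the 53 lysosome genes, grouped by role and ordered within a role by colon change minus brain change. Points are estimates from limma with 1 SE, orange for colon and blue for brain, filled where the adjusted p was under 0.01. Most blue points lie right of 0, with 33 called there, while 19 orange points are called left of 0 and 6 right of it.

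Among the cathepsins and other proteases (7 genes), 3 were lower and 1 was higher in colon at PND 22, and 4 were higher in brain. For this and the other role groups, the shares of all probes were 12.7% lower and 11.7% higher in colon, and 11.7% higher in brain. Tpp1, a tripeptidyl peptidase whose loss causes a childhood ceroid lipofuscinosis in humans, had signals in colon of 583 to 844 (median 768) at PND 22 and of 919 to 1158 (median 979) at PND 3. In brain its signals were 578 to 813 (median 773) at PND 22 and 339 to 412 (median 368) at PND 3. All colon samples of PND 22 were below those of PND 3, and all brain samples of PND 22 were above them. The fall in colon was 1.38-fold (adjusted p = 0.00094 in limma) and the rise in brain 2.01-fold (adjusted p = 3.78e-15), a difference of -1.47 ± 0.14 on the log2 scale (SE, adjusted p = 1.86e-15). Without overlap between 6 samples and 6, the two-sided exact permutation test gives 0.00216, the smallest p it can give.

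Ctsh, a cysteine protease with aminopeptidase activity, moved in opposite directions, by similar amounts as processed here. Over the alternatives tried, its log2 change was -0.81 to -0.68 in colon and 0.62 to 1.04 in brain. Its signals in colon were 204 to 287 (median 267) at PND 22 and 297 to 501 (median 426) at PND 3. In brain they were 152 to 207 (median 171) at PND 22 and 84.6 to 120.1 (median 111) at PND 3. Neither tissue had overlapping ages, and the fall was 1.63-fold in colon (adjusted p = 0.000194) and the rise 1.64-fold in brain (adjusted p = 7.23e-07), a difference of -1.42 ± 0.20 (SE, adjusted p = 2.24e-09). Ctsd, the aspartic protease of the lysosome, did not share this pattern. It averaged 435 ± 65.0 at PND 22 and 269 ± 41.7 at PND 3 in colon (SD, n = 6 each), a 1.62-fold rise, and 431 ± 41.9 and 215 ± 32.9 in brain, a 2.01-fold rise. Its difference between tissues was -0.32 (adjusted p = 0.059).

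Of the other proteases, Ctsb rose 1.79-fold in brain and had a change of 0.21 in colon (adjusted p = 0.0946). Ctsc, a dipeptidyl peptidase, fell 1.35-fold in colon (adjusted p = 0.00264). This call was lost without colon PND 22 replicate 5 (adjusted p = 0.0113) and without colon PND 3 replicate 4 (adjusted p = 0.011). Ctse and Ctsk did not pass in either tissue between these ages.

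Among the glycosidases (9 genes), which cleave sugars from glycans and glycolipids, 5 were lower and 1 was higher in colon at PND 22, and 2 were higher in brain. Glb1, the acid beta-galactosidase, had colon signals of 152 to 211 (median 193) at PND 22 and of 432 to 752 (median 691) at PND 3. In brain it had 78.3 to 116 (median 96.6) at PND 22 and 78.8 to 99.9 (median 92.9) at PND 3. The colon samples of PND 22 lay far below those of PND 3, a fall of 3.42-fold (adjusted p = 1.15e-11), while the brain samples overlapped, with a change of 0.06 ± 0.09 (SE, adjusted p = 0.701). The difference between tissues was -1.83 ± 0.21 (SE, adjusted p = 1.41e-12).

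Gusb, beta-glucuronidase, fell 2.45-fold in colon (adjusted p = 6.26e-18) and had a change of -0.21 in brain (adjusted p = 0.0262). It averaged 339 ± 33.2 at PND 22 and 834 ± 129 at PND 3 in colon (SD, n = 6 each). Man2b1, an alpha-mannosidase, fell 1.83-fold in colon and did not pass in brain. Gaa, the acid alpha-glucosidase, was called lower in colon and did not pass in brain, but 1 of 6 colon samples of PND 22 was detected, so that no fold is given. Hexa, the alpha chain of beta-hexosaminidase, fell 1.49-fold in colon (adjusted p = 0.0019) and rose 1.31-fold in brain (adjusted p = 9.38e-05). Manba, beta-mannosidase, was the largest rise of the group in brain at 1.38-fold, and it rose 1.51-fold in colon too. Its second, dimmer probe was not called in either tissue (0.14 in colon, adjusted p = 0.147, and -0.14 in brain, adjusted p = 0.127), so that the Manba result rests on 1 probe. Gla and Fuca1 did not pass in either tissue.

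Of the 3 sulfatases, Galns, which acts on keratan sulfate, fell 1.57-fold in colon (adjusted p = 2.94e-06). Its signals in colon were 59.8 to 76.2 (median 68.0) at PND 22, with 3 of 6 samples detected, and 91.5 to 127 (median 100.9) at PND 3. In brain they were 58.4 to 78.2 (median 63.0) at PND 22, with 1 of 6 samples detected, and 61.0 to 85.7 (median 72.9) at PND 3, with 3 of 6 detected. The colon ages did not overlap and the brain ages did, with a change of -0.17 in brain (adjusted p = 0.162), and the difference between tissues was -0.48 ± 0.14 (SE, adjusted p = 0.00678). It lost its call in 8 of 24 fits that left out a sample (colon PND 22 replicates 5 and 6 and PND 3 replicates 1 and 2, brain PND 22 replicate 5 and PND 3 replicates 1, 4 and 6), with an adjusted p of up to 0.0228 without brain PND 22 replicate 5.

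Arsb, which acts on dermatan sulfate, had colon signals of 57.2 to 149 (median 121) at PND 22 and of 85.2 to 237 (median 163) at PND 3. In brain its signals were 119.6 to 359 (median 307) at PND 22 and 79.6 to 189 (median 149) at PND 3. The ages overlapped in both tissues. The brain rise of 1.91-fold was called (adjusted p = 0.00175), but not without brain PND 3 replicate 3 (adjusted p = 0.0133). The colon change of -0.56 was not called (adjusted p = 0.0826), and the difference between tissues was -1.49 ± 0.36 (SE, adjusted p = 0.000501). Arsa, the sulfatidase, was called higher in brain, but 1 of 6 brain samples of PND 3 was detected, so that no fold is given.

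All 6 genes for lipid and ganglioside enzymes and activators were called higher in brain at PND 22, while in colon 2 were lower and 1 was higher. Ppt1, a thioesterase that removes palmitate from proteins, had colon signals of 393 to 601 (median 437) at PND 22 and of 777 to 1085 (median 821) at PND 3. In brain its signals were 1444 to 1884 (median 1591) at PND 22 and 987 to 1142 (median 1049) at PND 3. There was no overlap in either tissue. The fall in colon was 1.91-fold (adjusted p = 4.82e-13), the rise in brain 1.55-fold (adjusted p = 2.42e-11) and the difference -1.57 ± 0.11 (SE, adjusted p = 3.2e-23).

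Smpd1, acid sphingomyelinase, rose 1.43-fold in brain (adjusted p = 1.55e-07) and fell 1.19-fold in colon (adjusted p = 0.00536). The colon call was lost in 5 of the 12 fits that left out a sample, those without colon PND 3 replicate 2 (adjusted p = 0.0341) or 3 and without colon PND 22 replicate 4, 5 or 6. Asah1, acid ceramidase, was the largest rise of the group in brain. It averaged 1117 ± 51.2 at PND 22 and 559.7 ± 72.7 at PND 3 (SD, n = 6 each), a 2.01-fold rise (adjusted p = 4.6e-15), and had a change of -0.09 in colon (adjusted p = 0.636). Gm2a, the activator that presents ganglioside GM2 to hexosaminidase, rose 1.45-fold in brain and had a change of -0.26 in colon (adjusted p = 0.118). Psap, the precursor of the saposins, rose in both tissues, 2.12-fold in colon (adjusted p = 6.36e-07) and 1.68-fold in brain (adjusted p = 4.07e-06). Lipa, acid lipase, was called higher in brain (adjusted p = 0.00685), but it was detected in 2 of 6 brain samples at PND 22 and 0 of 6 at PND 3, and the call was lost in 6 of 12 fits that left out a sample (PND 22 replicates 3 and 5 and PND 3 replicates 1, 2, 3 and 6), so that no fold is given.

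Acp2, a lysosomal acid phosphatase, fell 1.41-fold in colon (adjusted p = 1.67e-08) and had a change of 0.15 in brain (adjusted p = 0.126).

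Of the 7 membrane proteins and transporters, 3 were lower and 2 higher in colon at PND 22, and 5 were higher in brain. Scarb2, the receptor that carries beta-glucocerebrosidase to the lysosome, was the 1 gene of the set called with a colon change above its brain change. Its signals were 491 to 819 (median 642) at PND 22 and 230.2 to 304 (median 265) at PND 3 in colon. In brain they were 204 to 252 (median 244) at PND 22 and 110.4 to 163 (median 153) at PND 3. The ages did not overlap in either tissue, and Scarb2 rose 2.33-fold in colon (adjusted p = 1.31e-12) and 1.62-fold in brain (adjusted p = 3.73e-08), a difference of 0.52 ± 0.15 (SE, adjusted p = 0.00525). That difference lost its call in 7 of 24 fits that left out a sample (colon PND 22 replicate 6 and PND 3 replicate 5, brain PND 22 replicates 2 and 3 and PND 3 replicates 1, 2 and 6), with an adjusted p of up to 0.0233 without colon PND 22 replicate 6, and with normexp background correction (adjusted p = 0.0719).

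Lamp1, a main glycoprotein of the lysosomal membrane, was the largest rise of the group in brain. It averaged 3591 ± 247 at PND 22 and 1891 ± 114 at PND 3 (SD, n = 6 each), a 1.90-fold rise (adjusted p = 1.22e-17), and had a change of -0.24 in colon (adjusted p = 0.0228). Its relative Lamp2 fell 1.36-fold in colon (adjusted p = 0.00211) with a change of 0.14 in brain (adjusted p = 0.253). The cholesterol export proteins Npc1 and Npc2 differed from each other. Npc2 fell 1.33-fold in colon (adjusted p = 0.000231) and rose 1.52-fold in brain (adjusted p = 2.38e-08), and Npc1 rose 1.32-fold in colon (adjusted p = 0.00151) and 1.31-fold in brain (adjusted p = 0.00108). Laptm4a fell 1.28-fold in colon (adjusted p = 6.51e-06) with quantile normalization, had a colon change of 0.030 with 75th-percentile scaling, and rose 1.45-fold in brain (adjusted p = 8.93e-10). Cd63, a tetraspanin, did not pass in either tissue.

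Of the 20 genes of the proton pump, 14 were higher in brain at PND 22 and 0 lower, against 11.7% and 12.2% of all probes. In colon 4 were lower and 1 was higher, against 12.7% and 11.7%. The higher gene was Atp6v0e2. Its call was lost in 6 of 12 fits that left out a sample, with an adjusted p of up to 0.0289. Those were the fits without colon PND 22 replicate 1, 4 or 6 or colon PND 3 replicate 1, 5 or 6. The brain call of Atp6v1c2 was lost in 9 of 12 fits that left out a sample, with an adjusted p of up to 0.0311 without brain PND 22 replicate 1. The median log2 change of the 20 genes was -0.04 in colon and 0.45 in brain. The 6 genes that were not called in brain were Atp6v1f and 5 genes that were not detected in every sample of either tissue (Atp6v0a4, Atp6v0d2, Atp6v1b1, Atp6v1e2 and Atp6v1g3). Atp6v0d2 was called lower in colon, but was detected in 0 of 6 samples at PND 22 and 1 of 6 at PND 3, so that no fold is given.

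Atp6v1b2, the B subunit of the V1 sector found in most tissues, had colon signals of 653 to 1023 (median 819) at PND 22 and of 1135 to 2018 (median 1614) at PND 3. In brain it had 2810.4 to 4119 (median 3888) at PND 22 and 1790.0 to 2332 (median 1916) at PND 3. No ages overlapped. The fall in colon was 1.96-fold (adjusted p = 2.39e-07), the rise in brain 1.84-fold (adjusted p = 7.6e-09) and the difference -1.85 ± 0.19 (SE, adjusted p = 2.88e-14).

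Atp6v1g2, the G subunit known from neurons, had the largest difference of the 53 genes. Its brain signals were 3852 to 5836 (median 4841) at PND 22 and 1350.4 to 2288 (median 1939) at PND 3, without overlap, a 2.65-fold rise (adjusted p = 1.09e-11). In colon it was dim, with 66.3 to 83.0 (median 73.3) at PND 22 and 95.7 to 125 (median 113) at PND 3. The colon ages did not overlap, yet the change of -0.57 ± 0.24 (SE) was not called (adjusted p = 0.0615). Colon E21 replicate 4 had a signal of 711 for this gene, against 91.7 to 106 in the other colon samples of E21. Without that library the same change had an SE of 0.12 and was called (adjusted p = 9.75e-05), as was that of Atp6v1d (adjusted p = 0.00885), and the counts were 21 genes lower in colon and 11 called in opposite directions. Summed over 7 neuron markers, colon signal was 635 to 1461 (median 757) at PND 22 and 1756 to 2019 (median 1869) at PND 3, and the part of this in the Atp6v1g2 change was not tested.

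Atp6v1g1, the G subunit of most tissues, fell 1.49-fold in colon (adjusted p = 2.85e-12), and its rise of 1.16-fold in brain (adjusted p = 0.0042) lost its call in 4 of the 12 fits that left out a sample, those without brain PND 22 replicate 2 or 3 (adjusted p = 0.021) and without brain PND 3 replicate 1 or 4. Atp6v1c1, a V1 subunit that takes part in the assembly of the sectors, had brain signals of 3145 to 3816 (median 3359.8) at PND 22 and of 1195 to 1735 (median 1599) at PND 3. Its colon signals were 635 to 845 (median 744) at PND 22 and 604 to 828 (median 798) at PND 3. The brain ages did not overlap and the colon ages did, so that a 2.22-fold rise in brain (adjusted p = 3.06e-14) stood beside a change of -0.03 in colon (adjusted p = 0.908), a difference of -1.18 ± 0.17 (SE, adjusted p = 6.99e-09).

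Atp6v0c, the proteolipid of the proton-conducting ring, had 1 low brain sample at each of these ages, PND 22 replicate 6 and PND 3 replicate 4. Its brain signals were 13569 to 18864 (median 17843) at PND 22 and 10066 to 14824 (median 14232) at PND 3. In colon the signals were 5690.0 to 7919.9 (median 6409) at PND 22 and 5248 to 8482 (median 7173) at PND 3. The ages overlapped in both tissues. It rose 1.28-fold in brain (adjusted p = 0.000512) and the difference between tissues was -0.45 ± 0.14 (SE, adjusted p = 0.00749), which lost its call in 13 of 24 fits that left out a sample (colon PND 22 replicates 1, 2 and 6 and PND 3 replicates 1, 2 and 3, brain PND 22 replicates 1 to 5 and PND 3 replicates 4 and 6), with an adjusted p of up to 0.0345 without brain PND 3 replicate 4.

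Atp6v0e1, a small subunit of the V0 sector, had brain signals of 1151 to 1294 (median 1182) at PND 22 and of 847 to 885 (median 863) at PND 3, and colon signals of 1989.6 to 2339.8 (median 2134) at PND 22 and of 2044 to 2272 (median 2118) at PND 3. The brain ages did not overlap and the colon ages did. The rise in brain was 1.39-fold (adjusted p = 4.54e-11), the change in colon 0.00 (adjusted p = 0.997) and the difference -0.47 ± 0.07 (SE, adjusted p = 2.16e-08), which was -0.27 and not called after 75th-percentile scaling (adjusted p = 0.0171).

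**Figure D2:**
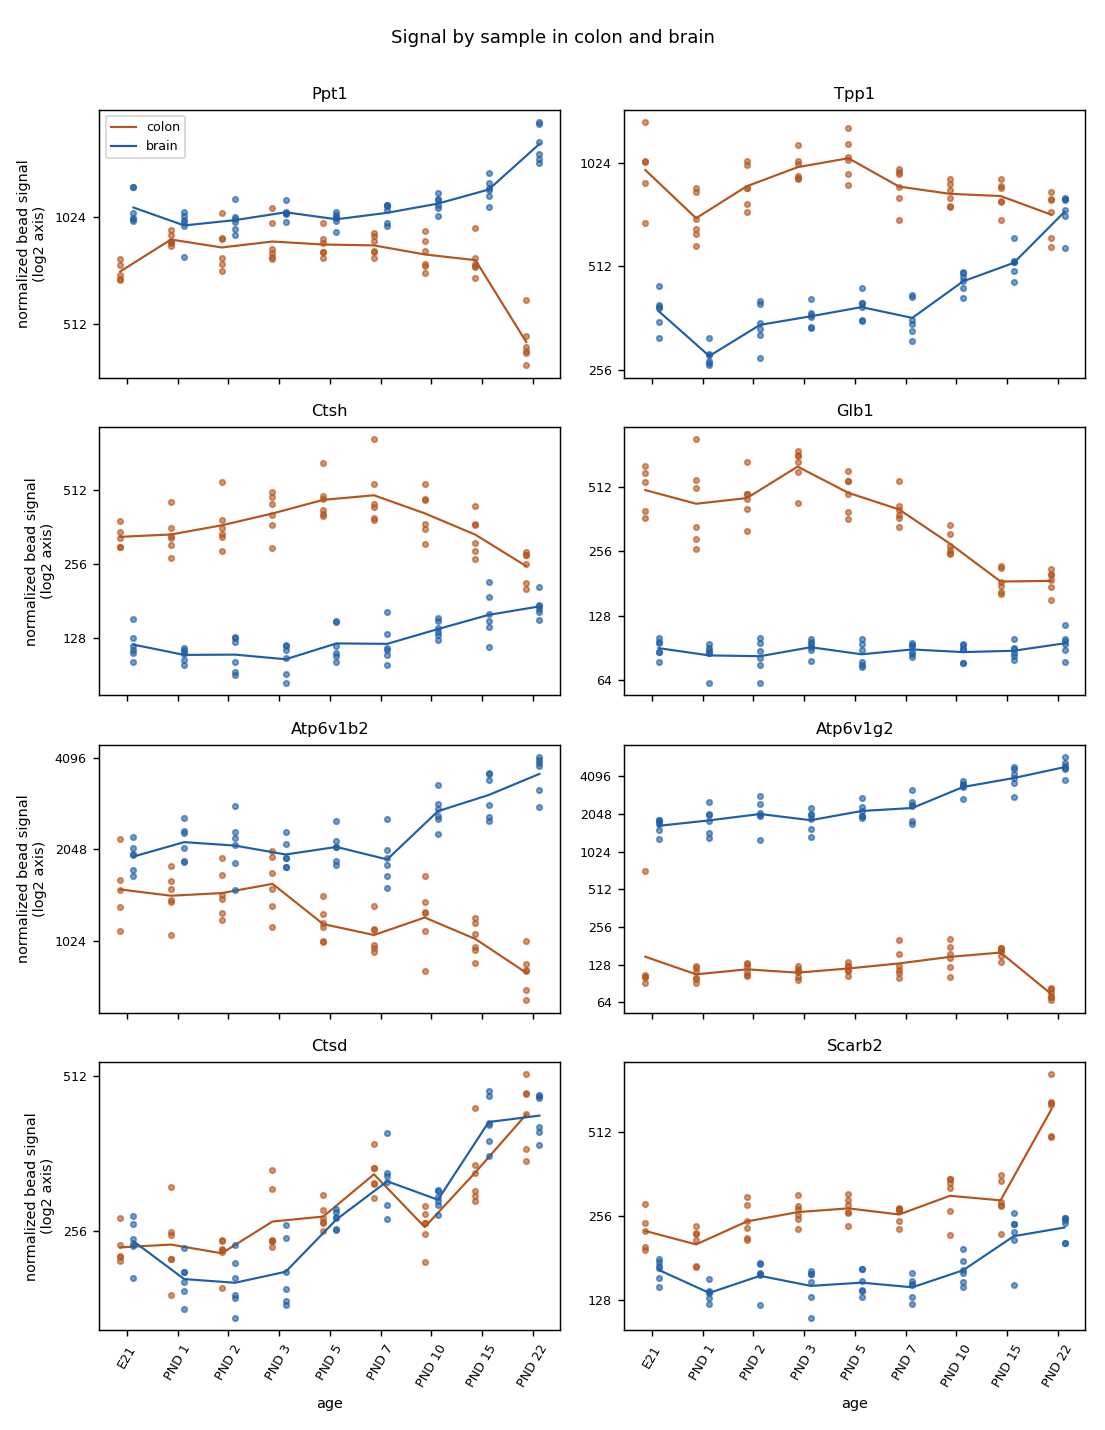
Normalized bead signal (vertical axis, log2 scale) by age for 8 lysosome genes in colon (orange) and brain (blue), with 1 point per sample and a line through the mean of the log2 signals. At PND 22 the colon points of Ppt1, Glb1 and Atp6v1b2 lie below those of PND 3, and the points of Ctsd and Scarb2 lie above those of PND 3 in both tissues. The high colon point of Atp6v1g2 at E21 is replicate 4, at 711.

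Over all 9 ages, 34 of the 53 genes changed in colon and 40 in brain by limma's F test, against 36.7% and 35.4% of all probes. Without colon E21 replicate 4, 37 changed in colon, with Atp6v1c1, Atp6v1e1 and Gm2a added. In colon, 14 genes had their highest mean at PND 3 and 10 at PND 22, while 18 had their lowest at PND 22. In brain, 33 genes had their highest mean at PND 22 and 2 their lowest. The share of all probes with their highest or lowest mean at these ages was not counted. The mean log2 signal of the 33 listed genes had a median over colon samples of 8.77 (E21), 8.94 (PND 3), 8.84 (PND 10), 8.78 (PND 15) and 8.67 (PND 22). In brain it was 7.98 (E21), 7.92 (PND 3), 8.08 (PND 10), 8.18 (PND 15) and 8.32 (PND 22), and all samples of PND 22 (8.29 to 8.42) were above all of PND 3 (7.89 to 7.97). For the 20 pump genes the median was 8.44 (E21), 8.51 (PND 3), 8.49 (PND 10) and 8.38 (PND 22) in colon, and 9.08, 9.17, 9.41 and 9.62 at the same ages in brain.

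**Figure D3:**
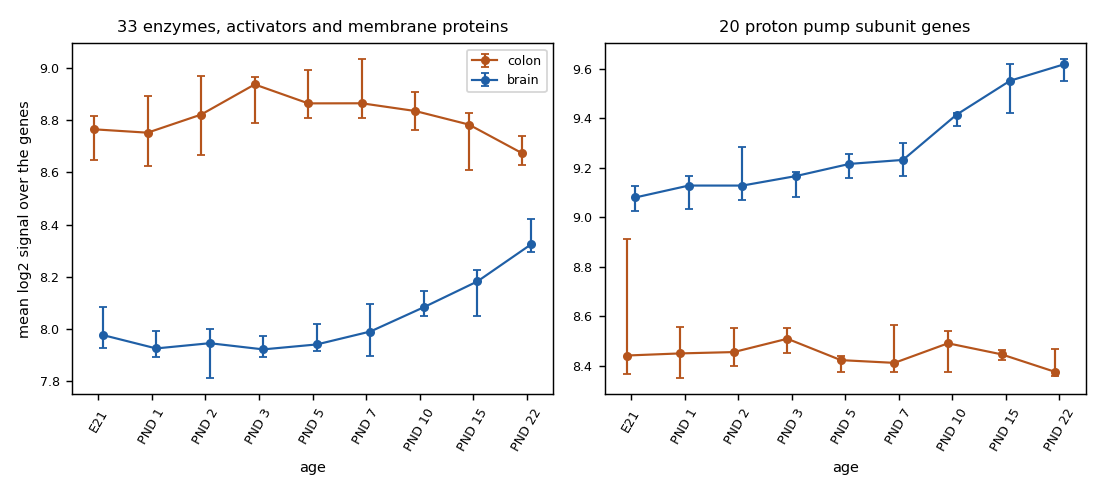
Mean log2 signal (vertical axis) over the 33 listed enzymes, activators and membrane proteins (left) and the 20 proton pump genes (right) by age, in colon (orange) and brain (blue). Points are medians over the 5 or 6 samples and bars reach the lowest and highest sample. From PND 10 on the brain median of the listed genes is higher at each age (8.08, 8.18 and 8.32), and the long bar of the pump at E21 in colon ends at 8.91, in replicate 4.

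The changes were placed in time by 5 intervals in each tissue. Over birth, at PND 1 against E21, 1 gene was lower in colon (Tpp1) and 1 higher (Ctsk), against 2% and 1.74% of all probes. Without colon E21 replicate 4 the call of Tpp1 was lost, so that 0 were lower, and Atp6v1h was added, so that 2 were higher. With that library, 6 genes were lower at an unadjusted p under 0.05 in limma. From PND 1, 1 gene was lower at PND 3 (Atp6v1c2) and 6 were higher, against 0.808% and 0.91% of all probes: Hexa (0.79), Fuca1 (0.57), Tpp1 (0.49), Manba (0.46), Gla (0.39) and Atp6v0e1 (0.24 on the log2 scale). At PND 10 against PND 3, 4 were lower and 2 higher, against 3.26% and 3.13%. The 4 were Glb1 (-1.19), Gusb (-0.65), Galns (-0.60) and Gla (-0.38), and the 2 were Ctsk (1.09) and Psap (0.72). At PND 15 against PND 10, 1 was lower, Atp6v1g1 (-0.25), and 0 were higher, against 0.644% and 1.3%, with 2 higher at an unadjusted p under 0.05 in limma.

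The last interval in colon, PND 22 against PND 15, held 8 lower and 4 higher genes, against 9.27% and 9.13% of all probes. The 8 were Ctsk (-1.19), Atp6v1g2 (-1.10), Ctse (-1.004), Ppt1 (-0.76), Acp2 (-0.46), Laptm4a (-0.44), Gusb (-0.36) and Atp6v1g1 (-0.19). The 4 were Scarb2 (1.08), Manba (0.55), Ctsd (0.37) and Gla (0.37). Glb1 was thus called in an earlier interval than Ppt1. Ctse, Ctsk and Gla, which did not pass between PND 3 and PND 22, passed within this span.

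In brain, over birth 4 genes were lower (Hexa, Tpp1, Acp2 and Atp6v0e1) and 1 higher (Lamp2), against 2.12% and 1.47% of all probes. At PND 3 against PND 1, 0 were lower and 1 higher (Tpp1), against 1.18% and 0.968%. At PND 10 against PND 3, 16 were higher and 0 lower, against 4.85% and 3.84% of all probes, and 9 of the 16 were pump genes, led by Atp6v1g2 (0.88), Atp6v1a (0.51) and Atp6v1b2 (0.47). The other 7 were Ctsb (0.54), Lamp1 (0.52), Ctsd (0.47), Asah1 (0.43), Ctsh (0.41), Smpd1 (0.37) and Tpp1 (0.34). At PND 15 against PND 10, 8 were higher and 0 lower, against 3.94% and 3.84%, among them Ctsd (0.50), Asah1 (0.45) and Scarb2 (0.40). Without brain PND 15 replicate 6, 5 were higher in this interval, with the calls of Atp6v1c1, Laptm4a and Scarb2 lost. After 75th-percentile scaling 2 lysosome genes were called in this interval. At PND 22 against PND 15, 7 were higher and 0 lower, against 1.9% and 1.33%. They were Tpp1 (0.49), Ppt1 (0.42), Npc2 (0.39), Manba (0.36), Lamp1 (0.31), Ctsb (0.28) and Atp6v0e1 (0.24). At an unadjusted p under 0.05 in limma, 7, 2, 3 and 0 genes were lower in these last 4 intervals of brain.

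**Figure D4:**
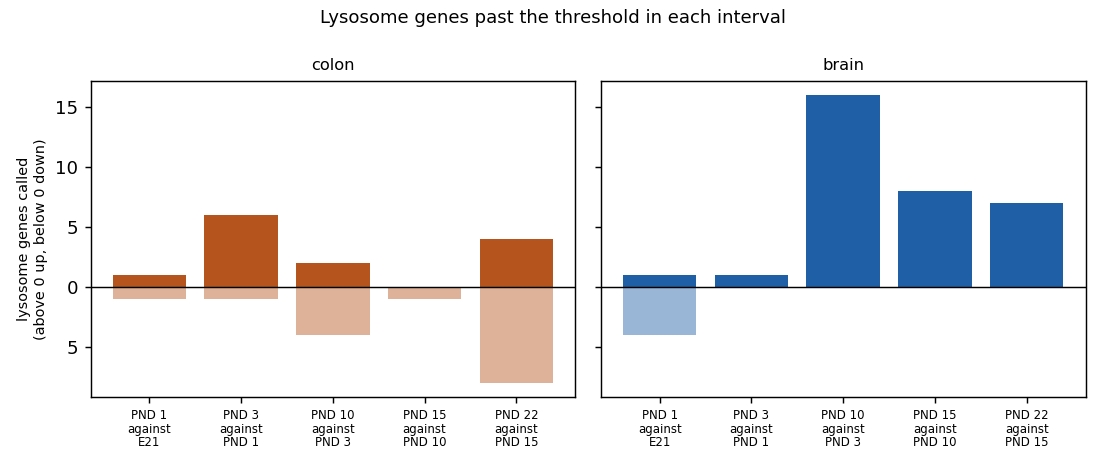
Number of lysosome genes past the threshold (vertical axis, above 0 for higher and below 0 for lower at the later age) in 5 intervals, in colon (left) and brain (right). In colon 8 of the lower calls are at PND 22 against PND 15, while brain has 16, 8 and 7 higher calls in the last 3 intervals.

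The levels of the tissues were also set against each other, probe by probe. At PND 3, 25 of the 53 genes were higher in colon than in brain and 14 lower, against 17% and 18.2% of all probes. At PND 22, 17 were higher and 23 lower, against 19.3% and 19%. Lamp1, Gm2a and Atp6v1g1 were higher in colon at PND 3 and lower in colon at PND 22, and 0 genes were lower in colon at PND 3 and higher at PND 22. The share of all probes with such a reversal was not counted. Tpp1 was 2.72-fold higher in colon than in brain at PND 3 (adjusted p = 2.6e-24) and differed by -0.03 at PND 22 (adjusted p = 0.879). Atp6v1b2 differed by -0.32 at PND 3 (adjusted p = 0.0488) and was 4.498-fold lower in colon at PND 22 (adjusted p = 6.16e-28). Of the 33 listed genes, 23 were higher and 3 lower in colon at PND 3, and 16 were higher and 9 lower at PND 22. Of the 20 pump genes, 2 were higher and 11 lower in colon at PND 3, and 1 was higher and 14 lower at PND 22. The difference between the listed genes and the pump was not tested.

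Promoters were searched for an element that the selection by symbol did not use. The transcription factor TFEB and its relatives bind an E-box-like element in promoters of many lysosome genes, and its core was searched as CACGTG, which reads the same on both strands, and as the longer TCACGTG on either strand, each of which contains the core. The windows were RefSeq promoters of build GRCr8, with 250 bases before and 50 after a transcript start, which matched 41 of the 53 genes. That start is the outer end of the annotated gene for 21 of the 41 and lies inside the annotated gene for 20, by 7780 bases in Lamp1, 12606 in Cd63 and 12985 in Idua. The core was found in the windows of 8 of the 41 genes (19.5%) and in 7.08% of the 27457 genes with a window, and the longer motif in 7 (17.1%) and in 3.58%. The 8 genes were Atp6v0d1, Atp6v0e1, Cd63, Ctsd, Gaa, Glb1, Idua and Lamp1, and of the 9 genes called in opposite directions, 6 had a window and 0 of these held the core. A match is a match of letters, with nothing measured there. The stretches before the start that hold the core are shown for the 6 genes where it lies there in full, because they differ widely in their changes, with the core in capitals and the strand of the gene:
Glb1, chr8:122963588-122963653, plus strand: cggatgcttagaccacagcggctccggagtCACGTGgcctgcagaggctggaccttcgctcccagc
Gaa, chr10:105028258-105028323, plus strand: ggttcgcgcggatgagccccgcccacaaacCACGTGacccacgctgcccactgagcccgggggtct
Ctsd, chr1:206968822-206969008, minus strand: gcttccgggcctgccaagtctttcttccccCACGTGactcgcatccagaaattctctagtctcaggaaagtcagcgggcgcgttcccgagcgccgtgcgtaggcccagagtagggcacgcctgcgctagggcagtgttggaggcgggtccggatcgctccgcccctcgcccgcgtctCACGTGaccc
Lamp1, chr16:83075066-83075276, minus strand: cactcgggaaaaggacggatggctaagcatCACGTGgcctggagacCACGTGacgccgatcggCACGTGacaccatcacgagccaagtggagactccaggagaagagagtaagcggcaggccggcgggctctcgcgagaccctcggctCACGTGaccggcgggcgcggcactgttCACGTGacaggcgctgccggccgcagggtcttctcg
Cd63, chr7:1921924-1921989, plus strand: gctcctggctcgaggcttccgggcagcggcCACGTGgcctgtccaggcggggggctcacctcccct
Atp6v0d1, chr19:50357265-50357330, minus strand: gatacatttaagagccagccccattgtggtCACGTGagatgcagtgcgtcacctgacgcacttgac

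Lamp1 holds the core 5 times and Ctsd 2 times before the start, and the other 4 hold it once. At PND 22 against PND 3 the same 6 genes had log2 changes in colon of -1.77 (Glb1), -0.56 (Gaa), 0.69 (Ctsd), -0.24 (Lamp1), 0.04 (Cd63) and -0.00 (Atp6v0d1). In brain they had 0.06, 0.33, 1.01, 0.92, 0.16 and 0.66 in the same order. The colon value of Gaa is limited by signals near the detection limit at PND 22. Genes with the core thus included falls and rises in colon.

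Other genes of the lysosome were read from a further list. Of 43 such genes on the array, 11 were lower and 8 higher in colon at PND 22, against 12.7% and 11.7% of all probes. In brain 20 were higher and 2 lower, against 11.7% and 12.2%. The colon change was called below the brain change for 17 genes and above it for 3, against 10.9% and 10.3%. The median change of the 43 genes was 0.03 in colon and 0.17 in brain. None of the 8 genes higher in colon is among those given with values below. Ctsl, a cysteine protease, had a log2 change of -2.52 in colon (adjusted p = 2.67e-13), and of 0.33 in brain (adjusted p = 1.55e-05), both called. Neu1, the sialidase, changed by -1.23 in colon and 0.44 in brain, and Lgmn, the asparaginyl endopeptidase, by -1.01 and 0.50, all called. Aga, Laptm4b and Sumf1, which activates sulfatases, were also called in opposite directions. Slc17a5, the sialic acid exporter, fell by 1.53 in colon and had a change of -0.18 in brain (adjusted p = 0.0968). Ctss, a cysteine protease of phagocytes, had a change of 0.35 in colon (adjusted p = 0.0629) and rose by 2.61 in brain (adjusted p = 2.34e-24). Tcirg1, which encodes an a subunit of the pump under another name, changed by -0.9999 in colon (adjusted p = 4.13e-10) and 0.17 in brain (adjusted p = 0.164).

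Markers of cell types were read beside these genes. In brain, 9 of 15 macrophage and microglia markers were higher at PND 22 and 0 lower, against 11.7% and 12.2% of all probes. Their summed signal was 2879 to 3651 (median 3247) at PND 22 and 1907 to 2237 (median 2128) at PND 3. All 7 myelin and oligodendrocyte markers and all 6 astrocyte markers were higher, with median log2 changes of 4.12 and 1.58, and 3 of 7 neuron markers were higher and 2 lower. The myelin markers were summed to 14121 to 19294 at PND 22 and to 787 to 968 at PND 3. The part of these cell types in the rise of the lysosome genes was not tested. In brain the markers Cx3cr1 (64.2 at PND 22 and 64.1 at PND 3) and Ptprc (60.1 and 59.6) lay at the level of probes that were not detected.

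In colon, 4 of the 15 macrophage markers were lower at PND 22 and 2 higher, against 12.7% and 11.7% of all probes. Their summed signal was 2981 to 4164 (median 3224) at PND 22 and 3023 to 3573 (median 3244) at PND 3. Epithelial markers were higher in 7 of 9 genes and lower in 0. The summed epithelial signal was 77066 to 85772 at PND 22 and 54306 to 57732 at PND 3, without overlap. Of 6 genes of uptake and digestion in the neonatal enterocyte, Cubn (-1.69), Amn (-1.85) and Dab2 (-2.39 on the log2 scale), which serve endocytosis at the apical membrane, fell. Values of Fcgrt, Tmprss15 and Lct, the rest of the list, are not given, so that the 3 falls do not stand for the whole list. Of the 6 genes, 3 were detected in no colon sample of PND 22 and 1 in none of PND 3, which limits their changes. Which genes these were is not given, and the values of Cubn, Amn and Dab2 may be limited in this way. The sum over the 6 was 1714 to 2119 at PND 22 and 4040 to 6401 at PND 3. The smooth muscle markers Tagln and Actg2 fell, and values of Cnn1 and Des, the rest of the list, are not given. The summed signal over the 4 genes was 13999.6 to 31748 at PND 22 and 24660 to 29519 at PND 3, with overlap. At PND 22, replicates 1 and 2 had sums of 28521 and 31748, and the other samples 13999.6 to 20319. Of 3 red cell markers, 2 were higher in brain at PND 22 and 0 were called in colon. The part of these cells in the fall of the lysosome genes was not tested.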

How the data were processed

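Total RNA of rat colon (53 samples) and brain (54 samples) was hybridized by the authors to RatRef-12 BeadChips and read in BeadStudio, per the methods. The deposited bead signal is a linear intensity, not normalized between arrays. The deposited p-value beside it is the detection p-value of each probe against negative control beads. Another deposited table holds intensities that the authors quantile normalized. They left out 1 colon sample of E21 as an outlier, which was not used here.

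The deposited signals were quantile normalized over both tissues, with a floor of 1, and log2 transformed (limma 3.58.1 under R 4.3.3, with version 1.17.8 of data.table). One mean per age and tissue was fitted with eBayes to all 22523 probes. An F test over ages, contrasts between ages, and, in a joint fit, colon change minus brain change were adjusted by Benjamini-Hochberg (threshold 0.01). Single genes were compared by exact permutation tests. The array annotation names 13793 probes with 1 symbol and leaves 8730 without. Of a gene's probes the brightest was read. Plots used Python 3.11.15, matplotlib 3.10.9 and NumPy 2.4.6. The steps were tested on simulated data.

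Groups are those of the labels. The members, gene lists and tests were chosen with earlier results of these data known. Values by sample are given for the 8 members with the lowest and the 4 with the highest colon change minus brain change among those called. Every member called in opposite directions, and the largest change of each role in each tissue, are named. Neu1, Slc17a5, Ctsl and Ctss stand for other lysosome genes, with those called in opposite directions.

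The alternatives were normexp background correction (offset 16), quantile normalization of each tissue on its own, 75th-percentile scaling, the deposited normalized values, detected probes alone, a floor of 16, eBayes with a trend and robust, a block for the replicate number, the mean of a gene's probes, a random block of age and number across tissues, the ordinary F test, a minimum of 1.5-fold, and fits without each sample of PND 3, PND 22 or colon E21. Leaving out colon E21 replicate 4 from all colon fits and brain PND 15 replicate 6 from all brain fits, counting members detected throughout, and counting opposite calls without each sample and at 1.5-fold were added after seeing the data. The number of arrays limits the precision.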

Additional observations from a re-analysis of the deposited data

Results flagged for a closer look

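For 31 genes the change at PND 22 against PND 3 differed between colon and brain in the joint fit, with an adjusted p under 0.01 in limma. The values are colon change minus brain change on the log2 scale. Among proteases they were -1.47 (Tpp1), -1.42 (Ctsh) and -0.63 (Ctsb). Among glycosidases they were -1.83 (Glb1), -1.12 (Man2b1), -1.08 (Gusb), -0.96 (Hexa) and -0.89 (Gaa, limited by colon signals near the detection limit at PND 22). The sulfatases Arsb and Galns had -1.49 and -0.48. The lipid enzymes and activators Ppt1, Asah1, Gm2a and Smpd1 had -1.57, -1.10, -0.80 and -0.77, and the phosphatase Acp2 had -0.65. Among membrane proteins the values were -1.16 (Lamp1), -1.01 (Npc2), -0.88 (Laptm4a), -0.59 (Lamp2) and 0.52 (Scarb2). In the proton pump they were -1.98 (Atp6v1g2), -1.85 (Atp6v1b2), -1.18 (Atp6v1c1), -1.08 (Atp6v1d), -0.78 (Atp6v1g1), -0.73 (Atp6v1e1), -0.67 (Atp6v0d1), -0.59 (Atp6v1a), -0.59 (Atp6v1h), -0.47 (Atp6v0e1) and -0.45 (Atp6v0c).

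A sample lay far from the others of its group in 4 of 48 groups examined, where chance gives about 1 in 20. Arsb had a signal of 119.6 in brain PND 22 replicate 4, and Galns 78.2 in brain PND 22 replicate 5. Atp6v0c had 13569 in brain PND 22 replicate 6 and 10066 in brain PND 3 replicate 4, each the lowest of its group.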

How the results depend on the processing

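Of 332 values of single genes under alternatives, 320 kept their direction and their side of the threshold, 11 lost the call and 1 changed sign. With scaling to the 75th percentile, 9 genes were lower in colon and 1 lower in brain at PND 22, and the intervals had 8 (colon, PND 1 against E21), 4 (colon, PND 3 against PND 1), 3 (brain, PND 1 against E21), 0 (brain, PND 3 against PND 1) and 2 calls (brain, PND 15 against PND 10). The colon changes of Tpp1, Hexa, Npc2, Smpd1 and Atp6v1g1 and the differences between tissues of Galns, Atp6v0c and Atp6v0e1 lost their calls there, and Laptm4a changed to 0.030 in colon. The cause was not tested. The count of genes called in opposite directions was 4 with that scaling, 3 with at least 1.5-fold in both tissues, 8 to 10 without a sample of PND 3 or PND 22 (Smpd1 or Atp6v1g1 lost), 11 without colon E21 replicate 4, and 9 or 10 under the other settings for which it was counted. With normexp, 0 genes were called with a colon change above the brain change. At least 1.5-fold left 7 genes lower in colon and 18 higher in brain, by its construction.

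Fits without a sample of PND 3, PND 22 or colon E21 gave 17 to 21 genes lower and 5 to 6 higher in colon, 30 to 32 higher and 0 to 1 lower in brain, 28 to 31 called with a colon change below the brain change and 0 to 1 above it, 1 to 2 calls in colon at PND 1 against E21, and 0 to 1 in brain at PND 3 against PND 1. Without brain PND 15 replicate 6, left out after seeing the data, 5 were called in brain at PND 15 against PND 10. The replicate number as a block gave 20 genes lower in colon, Arsb being added, and ended the call for the difference between tissues of Atp6v0c (adjusted p = 0.0104), as did the deposited normalized values (adjusted p = 0.0109). Samples share only a number: deviations of colon and brain with 1 number and age had a median correlation of 0.22, and 86.8% of the 53 pairs were above 0.1, but the lowest was -0.08. For pairs of different numbers the median was -0.05 and 11.7% were above 0.1. Of the 37 genes detected in every sample of PND 3 and PND 22, 26 were called with a colon change below the brain change. The share among all probes detected in this way was not counted. Signals near the detection limit (65.6 to 72.7 in colon, 66.1 to 76.7 in brain) limit Lipa, Galns, Gaa, Arsa and Atp6v0d2. In colon at PND 22 such signals also limit Atp6v1g2 and Arsb.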
